A study of Mus musculus with 6 samples.

Results

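The genes that fuse, divide and fold mitochondria were followed in brown adipose tissue (BAT) of mice that lack soluble ST2 (sST2-KO) and of their wild-type (WT) littermates. They are 10 genes of the 35976 rows in the count table: the fusion genes Opa1, Mfn1 and Mfn2, the fission genes Dnm1l, Fis1 and Mff, the proteases Oma1 and Yme1l1 that cut OPA1, the cristae gene Immt, and Letmd1, a mitochondrial gene of brown fat. Members were picked by gene symbol, and the rule uses no measured value, though they were chosen with earlier results of these data known. All 10 had enough reads to be tested, with 84 to 4543 counts in a library.

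RNA-seq was performed on BAT labelled as 3 WT and 3 sST2-KO samples, from male mice on the C57BL/6J background. In sST2-KO mice, CRISPR removed from Il1rl1 an intronic stretch, in every cell of the body. That stretch holds the stop codon of the soluble form of the IL-33 receptor. Both genotypes were homozygous littermates from heterozygous parents, were 10 weeks old, had their BAT denervated by surgery, and were then exposed to 10 °C for 8 h. Every animal was therefore denervated and cold-exposed, and the series compares genotypes, not the cold or the surgery.

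Mitochondria join and split all the time. The mitofusins MFN1 and MFN2 are GTPases that join outer membranes, and OPA1, a GTPase of the inner membrane, joins inner membranes and holds cristae junctions narrow. DRP1, made from Dnm1l, is the GTPase that pinches mitochondria apart after the outer membrane proteins MFF and FIS1 and their relatives bring it there. Brown adipocytes are packed with mitochondria whose dense cristae carry UCP1 and the respiratory chain, and noradrenaline is known to make these mitochondria divide.

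The libraries held 8159442 to 12874809 counts. Il1rl1 itself was counted 19, 19 and 6 times in the WT libraries and 55, 69 and 142 times in the sST2-KO libraries, in the order of their replicate numbers. This count sums the soluble and the membrane-bound transcript, so it does not check the genotype. Libraries differed in more than genotype. The summed level of 12 brown adipocyte markers (Ucp1, Cidea, Elovl3 and others) was 8669 to 16250 CPM (counts scaled to the size of each library) in WT and 369.7 to 1923 CPM in sST2-KO, that of 10 general adipocyte markers 26660 to 32070 against 8156 to 16600 CPM, that of 10 macrophage markers 912 to 1219 against 1699 to 6700 CPM, and that of 14 skeletal muscle markers 10.5 to 1372 against 3891 to 16690 CPM. The test called 9 of 12 brown adipocyte and 2 of 10 adipocyte markers lower, and 3 of 10 macrophage, 7 of 8 T cell and 2 of 14 muscle markers higher. Of 8 Schwann cell and neuron markers, 5 were tested, of which 2 were called lower and 0 higher. The noradrenergic markers Th and Dbh, of the same list, were too low to test. They had 0 counts in all WT libraries, and 1, 1 and 3 (Th) and 0, 0 and 1 (Dbh) in sST2-KO. In sST2-KO replicate 3 the muscle and macrophage sums were highest and the 13 genes encoded in mitochondrial DNA held 6.80% of the counts, against 11.8% to 16.6% in the other libraries. WT replicate 2 held 4697 CPM of 7 liver genes, against 36.3 CPM or less elsewhere. All 14 muscle markers were higher without overlap between the groups, but the 2 that were called are a share near that of all genes (below). The part of these markers in the values below was not tested.

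Of the 10 genes, 5 were lower in sST2-KO BAT at an adjusted p under 0.05 (edgeR quasi-likelihood test, Benjamini-Hochberg over the 14542 genes tested), and 0 were higher. Over all genes tested, 9.1% were called lower and 10.5% higher. With libraries scaled by their total counts in place of TMM factors, the median log2 fold change of all genes moved from 0.03 to 0.29, and 6.13% were then called lower and 15% higher, while the same count of members, 5 lower and 0 higher, was called. The 5 genes were the fusion genes Opa1, Mfn1 and Mfn2, with Immt and Letmd1. None of the fission genes or of the OPA1 proteases passed the test. Without overlap between the groups, 6 of the 10 were lower and 1 was higher in sST2-KO, where 19.7% and 21.8% of all genes tested were lower and higher in this sense. The median log2 fold change (sST2-KO minus WT) was -0.75 over the 10 genes and 0.03 over all genes tested. In bulk tissue, fewer cells of a type and less RNA per cell cannot be told apart.

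The calls depended on single libraries. Without WT replicate 3 the count of lower genes went from 5 to 0, when 58 of all genes were called instead of 2847. It was 3 without WT replicate 2 and 3 without sST2-KO replicate 3. The sign of the 5 called genes was negative in every one of the 13 alternatives run for each.

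**Figure D1:**
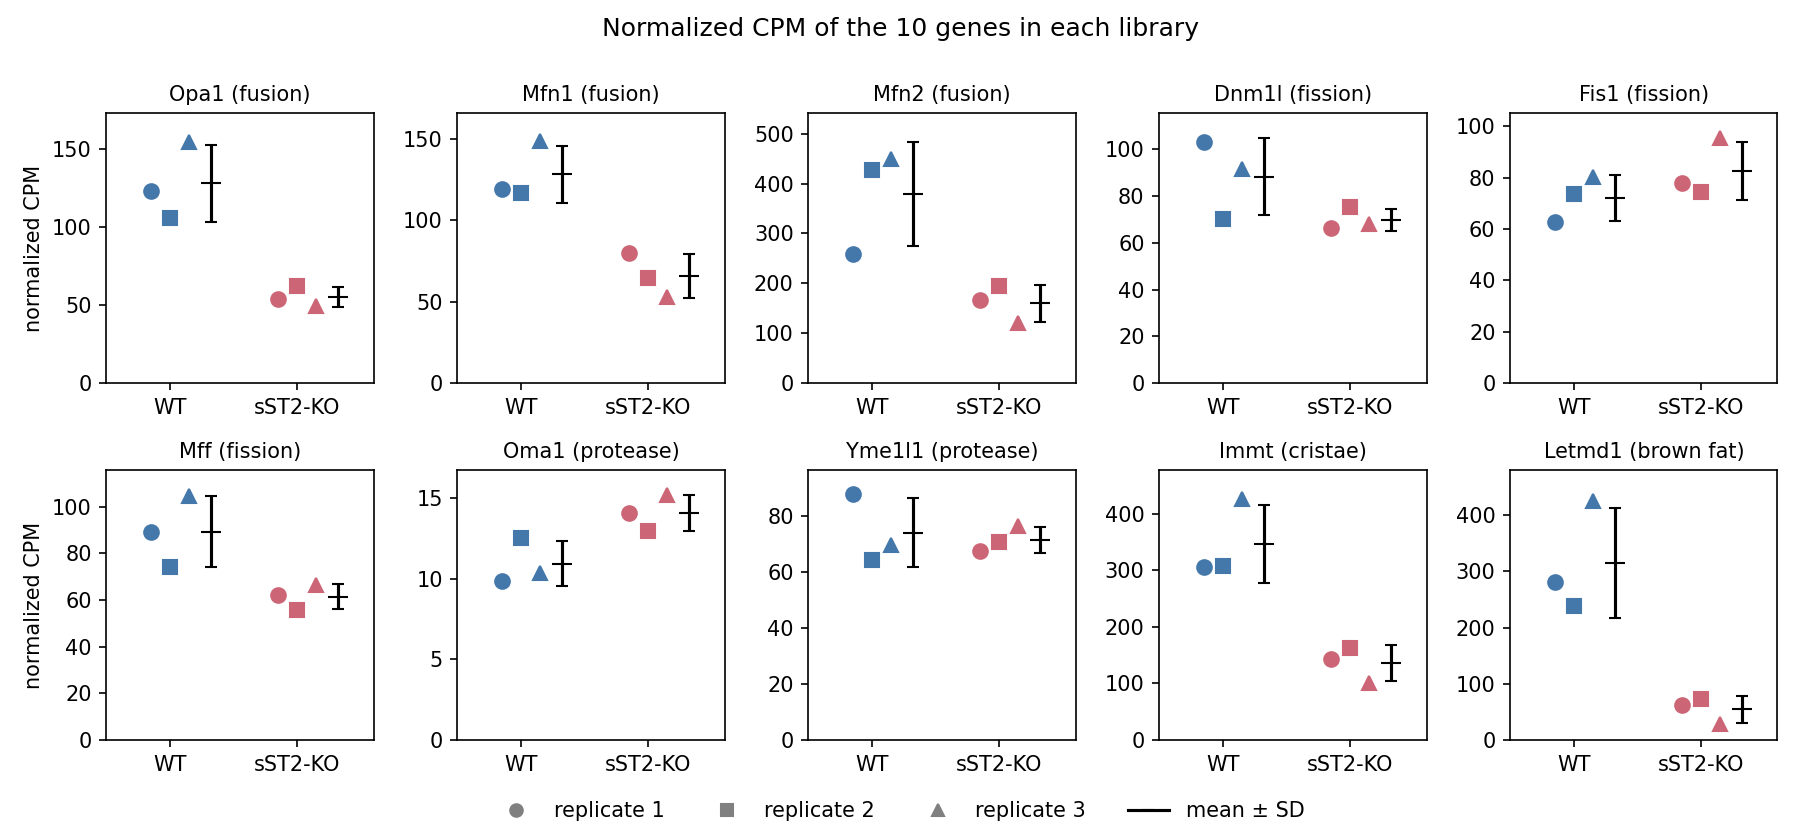
Normalized CPM of each gene (y axes, from 0) in the 3 WT (blue) and 3 sST2-KO (red) libraries, with symbols for replicates and bars for mean ± SD. The groups are apart for Opa1, Mfn1, Mfn2, Mff, Immt and Letmd1, with sST2-KO lower, and for Oma1, with sST2-KO higher.

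The 250 bases before the start of each gene's main transcript are shown for the 5 genes that were lower together, read 5′ to 3′ on the gene's strand from the GRCm39 genome, at chr16:29397865-29398114 (plus strand) for Opa1, chr3:32583349-32583598 (plus) for Mfn1, chr4:147989586-147989835 (minus) for Mfn2, chr6:71808010-71808259 (plus) for Immt and chr15:100366409-100366658 (plus) for Letmd1. Capitals mark matches to 6 short motifs, searched on both strands.
Opa1: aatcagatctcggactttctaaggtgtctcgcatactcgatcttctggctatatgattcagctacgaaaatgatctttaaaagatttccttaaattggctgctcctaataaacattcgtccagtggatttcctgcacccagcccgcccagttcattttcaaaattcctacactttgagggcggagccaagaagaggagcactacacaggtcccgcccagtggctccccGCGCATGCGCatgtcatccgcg
Mfn1: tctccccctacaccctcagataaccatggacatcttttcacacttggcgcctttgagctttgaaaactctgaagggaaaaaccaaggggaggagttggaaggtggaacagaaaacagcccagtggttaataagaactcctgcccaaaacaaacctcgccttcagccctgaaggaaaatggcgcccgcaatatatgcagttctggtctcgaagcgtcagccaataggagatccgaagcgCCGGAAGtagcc
Mfn2: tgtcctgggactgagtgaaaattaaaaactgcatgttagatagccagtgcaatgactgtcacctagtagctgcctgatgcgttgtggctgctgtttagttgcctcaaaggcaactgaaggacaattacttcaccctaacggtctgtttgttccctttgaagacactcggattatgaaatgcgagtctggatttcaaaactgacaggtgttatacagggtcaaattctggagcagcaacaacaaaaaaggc
Immt: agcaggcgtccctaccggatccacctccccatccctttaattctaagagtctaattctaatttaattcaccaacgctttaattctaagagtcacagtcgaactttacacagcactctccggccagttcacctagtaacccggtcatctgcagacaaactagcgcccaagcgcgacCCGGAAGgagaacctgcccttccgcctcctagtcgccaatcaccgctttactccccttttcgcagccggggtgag
Letmd1: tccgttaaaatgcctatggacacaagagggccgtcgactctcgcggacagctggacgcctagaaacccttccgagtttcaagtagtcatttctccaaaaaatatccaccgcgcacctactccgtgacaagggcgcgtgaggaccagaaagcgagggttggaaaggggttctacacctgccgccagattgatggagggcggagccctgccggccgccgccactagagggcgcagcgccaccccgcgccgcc

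The motifs were AAGGTCA (the core of estrogen-related receptor sites), GCATGCGC (NRF1), CCGGAAG (GABP and other ETS factors), TGACGTCA (the cAMP response element), AAGATGGCG (YY1) and CACGTG (an E-box). These factors are known regulators of mitochondrial genes. Opa1 held the NRF1 letters on both strands, in matches that overlap each other and begin 22 and 20 bases before the start. Mfn1 and Immt each held the ETS letters, 12 and 75 bases before the start. No letters of the 6 motifs were found in the Mfn2 and Letmd1 windows. Among 21770 promoters of the same length, 2.68% held the NRF1 letters, 6.89% the ETS letters, 3.93% the receptor letters, 1.69% the cAMP element, 0.547% the YY1 letters and 6.26% the E-box. Of the other 5 genes, Yme1l1 held the ETS letters and the cAMP element and the rest held no match. The last 7 bases of the Opa1 window belong to another Opa1 transcript. The Oma1 and Yme1l1 windows also end inside the annotated gene, and the Fis1 window lies wholly inside it. The ETS match of Yme1l1 is in the part inside the gene. A match is a description of letters, not a site of binding.

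Opa1 (chr16:29398108-29473858, GRCm39, plus strand) encodes the inner membrane fusion GTPase. Its level, in CPM and in the order of the replicate numbers here and below, was 124, 106 and 155 in WT and 54.1, 62.4 and 49.8 in sST2-KO, so every sST2-KO library was below every WT library. The group means were 128 ± 24.8 and 55.4 ± 6.43 CPM (SD, n = 3 here and below). On the log2 scale the change was -1.21 ± 0.21 (SE, here and below) with adjusted p = 0.0152, a level 2.31-fold higher in WT than in sST2-KO. Left-out libraries moved it between -1.33 and -1.06, and the adjusted p was 0.0647 without WT replicate 3.

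Mfn2 (chr4:147955508-147989585, minus strand) encodes the mitofusin that also tethers mitochondria to the endoplasmic reticulum and is induced in active brown fat. It had 259, 428 and 449 CPM in WT and 167, 194 and 120.3 CPM in sST2-KO. WT replicate 1 was the lowest WT library and still lay above all sST2-KO libraries. Its log2 fold change was -1.24 ± 0.30 with adjusted p = 0.0291, and WT was 2.36-fold higher on average. The adjusted p was 0.0879 without WT replicate 2, 0.11 without WT replicate 3, 0.058 without sST2-KO replicate 1 and 0.0688 without sST2-KO replicate 3.

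Mfn1 (chr3:32583599-32645888, plus strand) encodes the mitofusin that drives most outer membrane docking. Its level was 119.5, 117 and 149 CPM in WT and 79.7, 64.4 and 52.8 CPM in sST2-KO, again with no overlap. It had the smallest change of the 3 fusion genes, with a log2 fold change of -0.97 ± 0.22 that passed the test (adjusted p = 0.0247) and a 1.95-fold higher level in WT. Mfn1 was the only one of the 5 called genes with a change below 2-fold. Its adjusted p was 0.0609 without WT replicate 2, 0.101 without WT replicate 3, 0.0586 without sST2-KO replicate 2 and 0.0565 without sST2-KO replicate 3.

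Within a library, the 3 fusion genes stood in much the same proportion in both genotypes. The log2 ratio of Opa1 to Mfn2 was -1.53 ± 0.47 in WT and -1.50 ± 0.21 in sST2-KO. For Mfn1 to Mfn2 it was -1.52 ± 0.38 and -1.27 ± 0.27, with overlapping groups. These ratios were not tested, since 3 against 3 libraries cannot give an exact permutation p below 0.1.

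Dnm1l (chr16:16128677-16176904, minus strand), the gene of the fission GTPase DRP1, had 103, 70.3 and 91.6 CPM in WT and 66.3, 75.2 and 68.2 CPM in sST2-KO. WT replicate 2 lay among the sST2-KO libraries. Its change of -0.34 ± 0.19 in log2 did not pass the test (adjusted p = 0.254), with a 95% interval from -0.79 to 0.12. A fall of up to that lower bound was therefore within the precision of 3 libraries a group.

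Mff (chr1:82702582-82730684, plus strand) encodes the main outer membrane receptor for DRP1. It had 89.3, 74.2 and 105 CPM in WT and 62.4, 55.5 and 66.3 CPM in sST2-KO, with no overlap between the groups. Its log2 fold change was -0.54 ± 0.19, with an unadjusted p = 0.0228 in the edgeR fit and adjusted p = 0.083, so it was not called. Mff was the gene closest to the threshold among the 5 that did not pass.

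Fis1 (chr5:136982101-136995089, plus strand) encodes a small outer membrane protein that recruits fission and mitophagy factors. It had 62.6, 73.5 and 80.3 CPM in WT and 77.9, 74.4 and 95.6 CPM in sST2-KO, and the groups overlapped. The log2 fold change was 0.20 ± 0.19 (adjusted p = 0.486), with a 95% interval from -0.24 to 0.63. That interval lies above the point estimates of the 3 fusion genes, but the difference between genes was not itself put to a test.

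**Figure D2:**
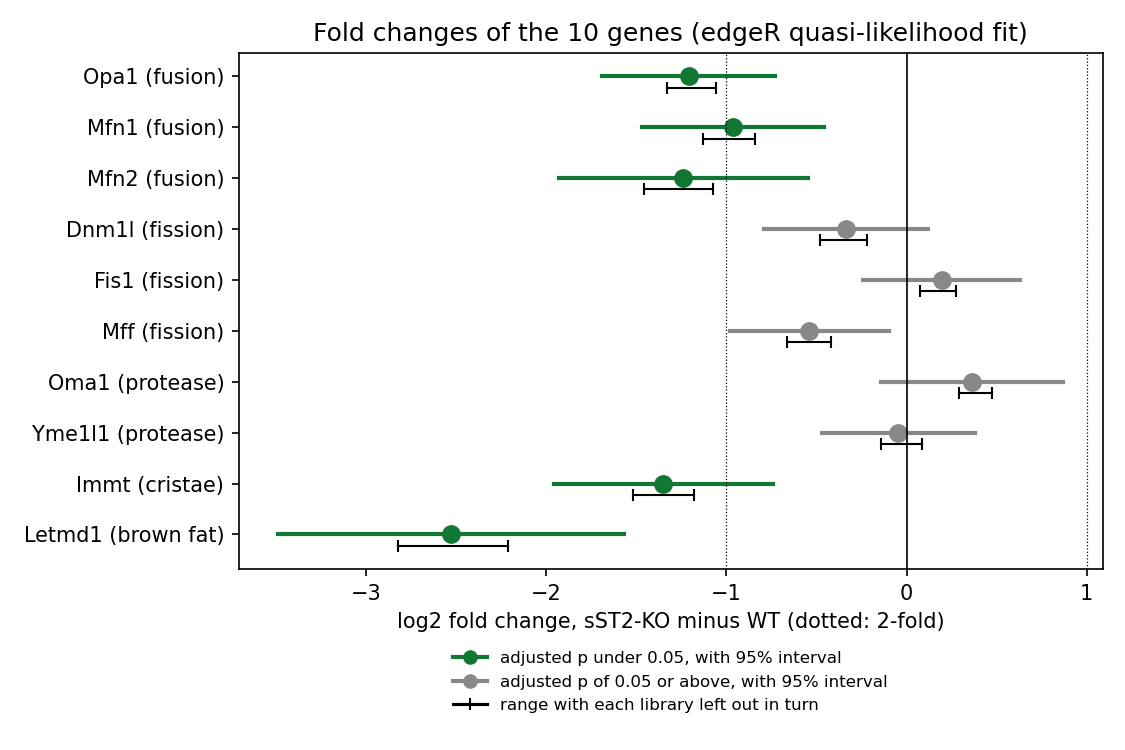
Log2 fold change (sST2-KO minus WT, x axis) of each of the 10 genes with its 95% interval, green where the adjusted p was under 0.05 and grey where it was not, and below it in black the range over the 6 fits that each leave out 1 library. The fusion genes, Immt and Letmd1 lie left of 0 with their whole interval and the interval of Mff ends just short of 0, while those of Dnm1l, Fis1, Oma1 and Yme1l1 cross 0.

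The balance of fusion to fission transcripts can be read inside each library, where the scaling between libraries drops out. The mean log2 level of the 3 fusion genes exceeded that of the 3 fission genes by 0.91, 1.26 and 1.24 in the WT libraries. For sST2-KO the same difference was 0.39, 0.44 and -0.15. All 3 sST2-KO libraries were thus below all 3 WT libraries, with means of 0.23 ± 0.33 and 1.14 ± 0.20. The difference was not tested and rests on 3 genes a side. Of 8 other fission genes tested, 3 were also called lower and 0 higher, and of 6 other fusion genes 5 were lower (below). The part of the lower adipocyte markers in this difference was not tested.

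Ratios of single pairs of genes were read in the same way. The log2 ratio of Dnm1l to Opa1 was -0.26, -0.59 and -0.76 in WT and 0.29, 0.27 and 0.45 in sST2-KO, so that Dnm1l had fewer reads than Opa1 in every WT library and more in every sST2-KO library. The 2 DRP1 receptors also parted. The log2 ratio of Mff to Fis1 was 0.51, 0.01 and 0.38 in WT and -0.32, -0.42 and -0.53 in sST2-KO, a difference of -0.72 with no overlap. These are descriptions with no test.

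Oma1 and Yme1l1 encode the inner membrane proteases that cut OPA1 into its short forms, OMA1 under stress and YME1L in steady state. Oma1 (chr4:103170737-103229065, plus strand) was the least abundant of the 10 genes, with 9.89, 12.5 and 10.4 CPM in WT and 14.1, 12.9 and 15.2 CPM in sST2-KO. Every sST2-KO library was above every WT library, by a small margin between 12.5 and 12.9 CPM. Its change of 0.37 ± 0.22 in log2 did not pass the test, with adjusted p = 0.264.

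Yme1l1 (chr2:23046034-23089281, plus strand) had 87.8, 64.3 and 69.5 CPM in WT and 67.3, 70.5 and 76.3 CPM in sST2-KO. The sST2-KO values lay inside the WT range. The log2 fold change was -0.05 ± 0.18 (adjusted p = 0.87), with an interval from -0.47 to 0.38, and its sign changed with the scaling. The log2 ratio of Oma1 to Yme1l1 overlapped between the groups.

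Immt (chr6:71808260-71854372, plus strand) encodes mitofilin, also called MIC60, the core of the MICOS complex that shapes cristae junctions. It had 305.5, 308 and 426 CPM in WT and 144, 162.5 and 101 CPM in sST2-KO. The lowest WT library was well above the highest sST2-KO library. It changed by -1.35 ± 0.26 on the log2 scale (adjusted p = 0.0177), with a 2.55-fold higher level in WT, and the adjusted p was 0.0742 without WT replicate 3. Within libraries, Immt stayed near Opa1, with a log2 ratio of 1.43 ± 0.12 in WT and 1.26 ± 0.22 in sST2-KO.

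Letmd1 (chr15:100366659-100384196, plus strand) encodes a mitochondrial protein enriched in brown adipocytes and needed for their heat production. It had 281.5, 238 and 425 CPM in WT and 62.7, 73.2 and 27.45 CPM in sST2-KO, the largest log2 difference among the 10 genes. The change was -2.53 ± 0.41 in log2 (adjusted p = 0.0148), with a 5.78-fold higher level in WT, and the adjusted p was 0.0614 without WT replicate 3. Only 1.10% of all genes tested had a lower log2 fold change. The lowest Letmd1 level was that of sST2-KO replicate 3, the library with the highest muscle sum. The lowest levels of Opa1, Mfn1, Mfn2 and Immt were in the same library. Fis1, Mff, Oma1 and Yme1l1 had their highest sST2-KO level in it.

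Letmd1 also moved apart from Immt. The log2 ratio of Letmd1 to Immt was -0.12, -0.37 and 0 in WT and -1.19, -1.14 and -1.86 in sST2-KO. The groups did not overlap, and the means differed by -1.24. The ratio was lowest in sST2-KO replicate 3.

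Levels can be compared between genes per kilobase of annotated exon. On that scale Mfn2 was highest in WT at 35.9 ± 9.88 CPM per kb, followed by Letmd1 at 27.3 ± 8.50, Immt at 23.8 ± 4.74 and Fis1 at 23.2 ± 2.86, neighbours whose mean ± SD ranges overlapped. Opa1 at 13.8 ± 2.67 and Dnm1l at 12.1 ± 2.28 came next and did not differ beyond their spread, followed by Mfn1, Yme1l1 and Mff between 8.07 and 9.52, and Oma1 at 0.976 ± 0.126. In sST2-KO the order began with Fis1 at 26.5 ± 3.65 CPM per kb, Mfn2 at 15.2 ± 3.53 and Dnm1l at 9.60 ± 0.646, closely followed by Immt at 9.33 ± 2.16. Letmd1 was ninth by its mean, at 4.73 ± 2.08, a spread that takes in the means of Mfn1 (4.87), Mff (5.55) and Opa1 (5.98). The exon lengths, 3113 to 14560 bases, count every annotated transcript, so genes with rare long transcripts are set too low. Of protein-coding genes on the other strand, Mfn1 overlaps Gnb4, Mfn2 Fv1, Dnm1l Yars2, Yme1l1 Mastl and Letmd1 Csrnp2. Fis1, Mff, Oma1 and Immt overlap other annotated genes there, and Mff overlaps the noncoding gene Gm28941 on its own strand. Whether the counting used strand is not given in the sources used here.

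The members were next set against other genes within each library, as the mean log2 level of a reference list subtracted from each gene. Against 10 outer membrane genes (TOM subunits and VDACs), which had a median log2 fold change of -0.62 themselves, Opa1 differed by -0.55, Mfn2 by -0.58, Immt by -0.72 and Letmd1 by -1.95 (sST2-KO minus WT), each without overlap between the groups. Mfn1, at a difference of -0.33, overlapped, as did Dnm1l and Mff. Fis1 was higher by 0.83, Yme1l1 by 0.60 and Oma1 by 1.00 relative to this list, without overlap. For Yme1l1 the nearest libraries were at -0.23 (WT replicate 1) and -0.17 (sST2-KO replicate 2), and its own log2 fold change was -0.05. Because the list itself was lower, a gene with little change reads higher here. The share of all genes without overlap on this scale was not computed. These relative levels have no test.

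Against 11 genes of protein import into the matrix (TIM subunits and peptidases), of which 7 were called lower, the fusion genes overlapped between the groups. Opa1 differed by -0.13, Mfn1 by 0.08 and Mfn2 by -0.17. Against 10 adipocyte markers, a reference chosen after their lower level in sST2-KO was seen, the same differences were -0.12, 0.10 and -0.15, again with overlap. For Immt the difference was -0.30 against the matrix import genes, without overlap, and -0.29 against the adipocyte markers, with overlap.

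Letmd1 was lower in sST2-KO than in WT relative to each of the 3 reference lists, without overlap. None of these lists is particular to brown fat. The 12 brown adipocyte markers had a median log2 fold change of -3, a larger fall than the -2.53 of Letmd1. Letmd1 was not set against those markers within libraries, so its lower relative level is not shown to be particular to it. Relative to the adipocyte markers its log2 level was -2.31, -2.91 and -1.98 in WT and -3.78, -3.81 and -4.17 in sST2-KO, a difference of -1.52. At the other end, Fis1, Oma1 and Yme1l1 were higher relative to the adipocyte markers by 1.26, 1.42 and 1.03, each without overlap. Dnm1l at 0.75 and Mff at 0.54 overlapped. These adipocyte markers had a median log2 fold change of -0.92, and all genes tested had one of 0.03. A gene with little change, such as Yme1l1 at -0.05, therefore also reads higher on this scale. The share of all genes that were higher in this sense was not computed. The summed CPM of the adipocyte markers was itself lower in every sST2-KO library, with 2 of the 10 genes called, and the part of this in the relative levels was not tested.

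**Figure D3:**
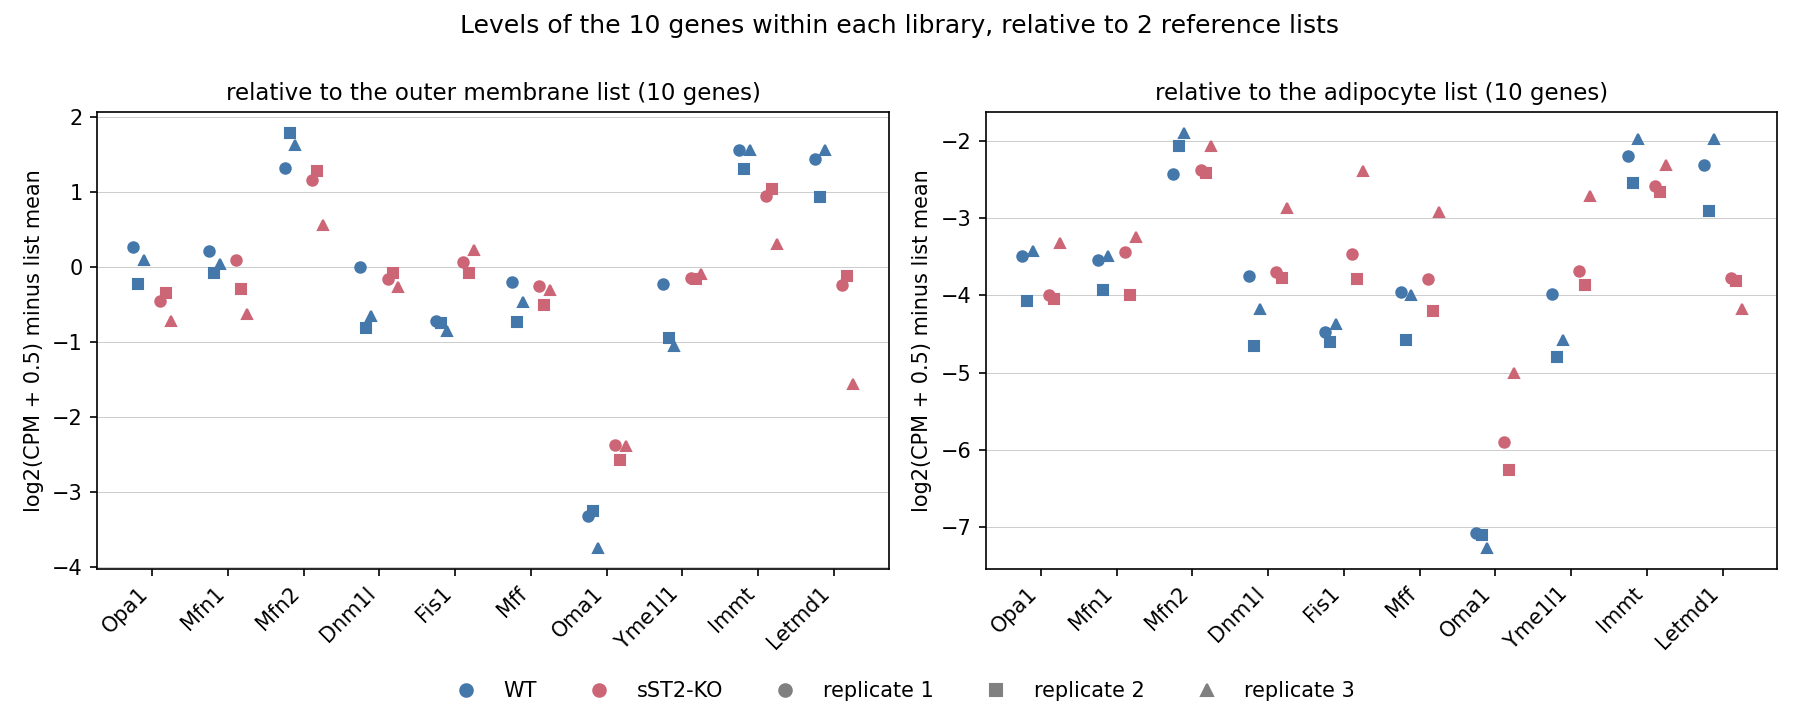
Log2(CPM + 0.5) of each gene minus the mean of 10 outer membrane genes (left) or of 10 adipocyte markers (right), 1 point a library, WT in blue and sST2-KO in red, with symbols for replicates. On the right the WT and sST2-KO points of Opa1, Mfn1 and Mfn2 mix, those of Letmd1 lie apart with sST2-KO lower, and those of Fis1, Oma1 and Yme1l1 lie apart with sST2-KO higher.

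Other genes of the same processes were read from 6 lists written by function. With Immt counted, 28 of the 55 genes tested were lower and 1 was higher. Over all genes tested, 9.1% were called lower and 10.5% higher, the shares to set beside the counts of each list below. Without Immt the median log2 fold change of the other 54 genes was -0.83. The count of lower genes was 16 without WT replicate 2, 1 without WT replicate 3 and 18 without sST2-KO replicate 3.

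Of the MICOS and SAM genes, which build cristae junctions and insert outer membrane barrels, 9 of 12 were lower and 3 did not pass, with a median of -1.18. Micos13 (log2 fold change -1.81, adjusted p = 0.0148) and Apoo (-1.65, adjusted p = 0.0136), both small MICOS subunits, were at the low end. The metaxins Mtx3 (-0.74, adjusted p = 0.0528) and Mtx1 (-0.49, adjusted p = 0.114) were at the high end and were not called. In 11 of the 12 genes the groups did not overlap, with sST2-KO lower, as in 19.7% of all genes tested.

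Of 6 further fusion genes, 5 were lower. Miga2, a mitoguardin that promotes fusion at the outer membrane, went from 168 ± 19.4 to 42.45 ± 25.3 CPM (log2 fold change -1.99, adjusted p = 0.0252). Slc25a46, an outer membrane partner of OPA1 and the mitofusins, was lower at -0.82 in log2 fold change (adjusted p = 0.0375). Pld6, the phospholipase that makes phosphatidic acid on the outer membrane, had 26, 33 and 33 counts in WT and 5, 4 and 1 in sST2-KO (adjusted p = 0.0139), too few for a firm fold. Miga1 was at 0.62 (adjusted p = 0.392), so the 2 mitoguardins had opposite signs, with Miga1 not called and at 3.13 CPM in WT.

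Of the other fission genes, 8 were tested, 3 were lower and 5 were not called. Mtfp1, an inner membrane protein that promotes fission, had 29.3, 22.05 and 46.0 CPM in WT and 2.86, 4.27 and 3.06 CPM in sST2-KO, which is a change of -3.26 ± 0.35 in log2 (adjusted p = 0.00912). Its change was larger than that of any of the 10 members. Mief2, an outer membrane receptor that binds DRP1, was lower, at -1.31 (adjusted p = 0.0216), while Dnm2 (0.15, adjusted p = 0.577) and Mtfr2 (0.22, adjusted p = 0.727) were not called.

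In a list of mitochondrial proteases of the inner membrane and other compartments, the phosphatase gene Pgam5, prohibitins and Letm1-related genes, 7 of 11 were lower. Letm1, an ion exchanger of the inner membrane that shares a domain with Letmd1, was at -1.71 in log2 fold change (adjusted p = 0.016), and Phb1, a prohibitin that scaffolds the inner membrane, was at -1.69 (adjusted p = 0.0148). Pgam5 (-0.17, adjusted p = 0.48) and the protease Htra2 (0.22, adjusted p = 0.421) were not called. Oma1 and Yme1l1 were near these last genes in their values.

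Cardiolipin is the lipid that OPA1 needs on the inner membrane. Of 9 genes for making, remodelling or carrying cardiolipin and related lipids, 3 were lower and 1 was higher. Crls1, the cardiolipin synthase, was lower, at -1.73 (adjusted p = 0.034), and so was Lclat1, a remodelling acyltransferase, at -0.95 (adjusted p = 0.0469). Pgs1, which makes phosphatidylglycerol phosphate, a precursor of cardiolipin, was higher, at 28.1, 38.5 and 36.0 CPM in WT and 52.7, 62.1 and 79.2 CPM in sST2-KO (log2 fold change 0.92, adjusted p = 0.0287). It was the only gene of the 6 lists that was called higher, and that count was 0 in each fit without one library except the fit without sST2-KO replicate 1. Prelid1, a lipid carrier, was at 0.57 (adjusted p = 0.132).

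Of 9 mitophagy genes, 1 was lower, the receptor gene Bcl2l13 (-1.50, adjusted p = 0.0163). That share is near the 9.1% of all genes tested that were called lower. Optn (-1.02, adjusted p = 0.0978), Fkbp8 (-0.22, adjusted p = 0.463) and Fundc1 (0.18, adjusted p = 0.522) were not called. Of the 2 reference lists, 4 of 10 outer membrane and 7 of 11 matrix import genes were lower and 0 were higher. At their low ends stood Tomm5 (-1.34, adjusted p = 0.015), Tomm40 (-1.17, adjusted p = 0.0261), Pam16 (-1.54, adjusted p = 0.0136) and Timm44 (-1.53, adjusted p = 0.0161). Vdac1 (-0.30, adjusted p = 0.314), Tomm20 (-0.29, adjusted p = 0.349), Pmpca (-0.50, adjusted p = 0.0953) and Dnajc19 (-0.21, adjusted p = 0.384) stood at their high ends and were not called.

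**Figure D4:**
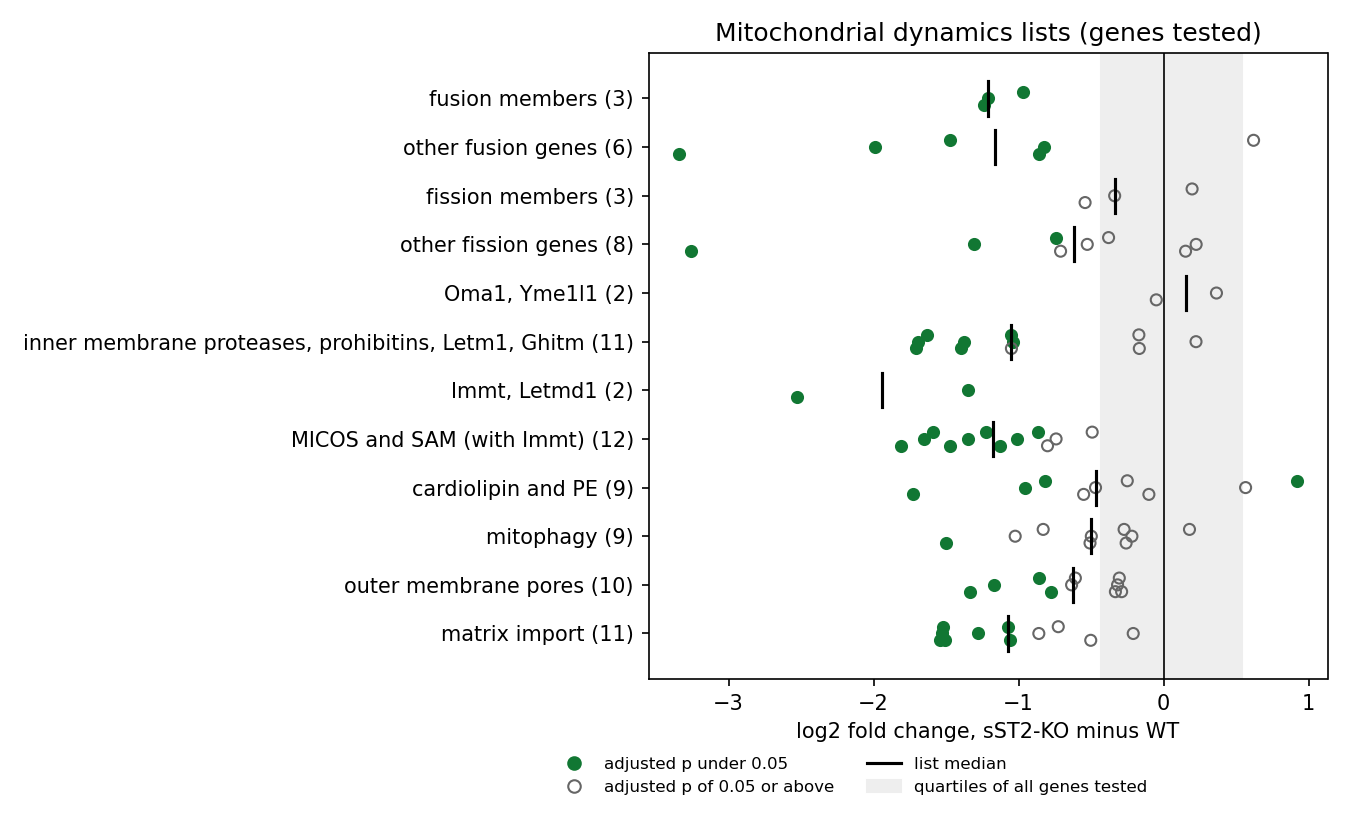
Log2 fold change (sST2-KO minus WT, x axis) of every gene tested in the member groups and in the wider lists (y axis, with the number of genes tested), filled green where the adjusted p was under 0.05, with each list's median as a black bar and the span between the quartiles of all genes tested (-0.43 to 0.54) shaded. The MICOS and SAM genes all lie left of 0, and Pgs1 is the only filled point right of 0. The list labelled with inner membrane proteases also holds proteases of other compartments and Pgam5.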

How the data were processed

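BAT in 3 WT and 3 sST2-KO samples was measured by poly-A RNA-seq. Per the study's methods and the submitters' processing notes, reads were checked with FastQC 0.12.1, aligned to mm39 with HISAT2 2.2.1 and counted on genes with htseq-count, whose version, annotation and use of strand are not given in the sources used here. The authors deposited raw counts, 1 row per gene symbol. Of the columns with per-sample values, 0 were left out. Samples were grouped by their labels, which number the samples of a group but do not say that each is 1 mouse, so p-values measure the spread between these samples.

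The counts were fitted with edgeR 4.0.16 (R 4.3.3). Here filterByExpr left 14542 genes, libraries were scaled by TMM (factors 0.825 to 1.14), and the quasi-likelihood test compared sST2-KO with WT with Benjamini-Hochberg adjustment over all of them. The common biological coefficient of variation was 0.325. CPM use the TMM-scaled library size, and log2 levels add 0.5 CPM. The SE is the log2 fold change divided by the square root of F. The study's methods name DESeq2 and a 2-fold change, run here as alternatives (DESeq2 1.42.0). The steps were tested on simulated data.

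The members and lists were chosen with earlier results of these data known. All members are named, and of each wider list the 2 genes with the lowest and the 2 with the highest log2 fold change. Current symbols were matched to older ones (Micos13, Micos10, Miga1, Miga2, Phb1), Marchf5 was not matched and Gdap1 was too low to test. Coordinates and sequences are from GRCm39 and its GENCODE annotation, the build of mm39. Between libraries of 1 group, chi-square over its degrees of freedom was 36.6 to 104, far above that of a library deposited again. Figures were drawn with matplotlib 3.10.9.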

Additional observations from a re-analysis of the deposited data

How the results depend on the processing

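The 5 lower calls (Opa1, Mfn1, Mfn2, Immt and Letmd1) were also made with RLE size factors, total counts, no filter, a minimum of 10 counts in every library, robust estimation and DESeq2, with adjusted p of 2.67e-08 to 0.0486. With 1 library left out at a time, the count of lower members was 0 to 5, that of higher members 0 throughout, that of all genes called 58 to 2520, and that of the wider lists 1 to 25 lower and 0 to 1 higher. At an unadjusted p under 0.05, 5269 of all genes passed. With total counts, 2 genes of the wider lists were higher. Yme1l1 turned to a log2 fold change of 0.203 under total counts, and lay between -0.143 and 0.088 when 1 library was dropped. With the replicate number as a block, 0 genes of the table were called, the members and wider lists included (4623 genes at an unadjusted p under 0.05). The adjusted p under the block was 0.0686 for Opa1 and Letmd1, 0.08 for Mfn1, 0.0839 for Mfn2 and 0.0735 for Immt, at log2 fold changes of -1.20 (Opa1), -2.58 (Letmd1), -0.98 (Mfn1), -1.22 (Mfn2) and -1.36 (Immt). Deviations of same-numbered libraries from their group means correlated at -0.06, 0.21 and -0.31. With so few libraries a group, these values cannot show or exclude a pairing. The labels give a shared number and name no pairing. The cause of the calls lost without a library was not tested, beside the fewer samples in each such fit.

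With 3 samples a group, the 95% intervals of the 5 members that were not called reached from -0.98 (Mff) to 0.87 (Oma1) in log2. Marker levels of several cell types differ between the genotypes. A transcript level per cell cannot be read from these counts, and transcripts do not give the amount or the cutting of the proteins.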
